A study of Mus musculus with 12 samples.

Results

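The antiviral interferon-stimulated genes are described here in mouse microglia, as a set of 35 genes chosen by symbol from the 14541 gene rows of the deposited expression table. All 35 were found, and all 35 were among the 11242 genes kept by a filter of 1 FPKM in at least 4 of the 12 libraries. FPKM, the fragments of a gene scaled by its length and by the reads of the library, relates the reads of a gene to its length and to the size of the library.

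Type I interferons bind a receptor made of IFNAR1 and IFNAR2 and act through the kinases JAK1 and TYK2. These phosphorylate STAT proteins, which join IRF9 and bind the interferon-stimulated response element (ISRE) in the promoters of many genes. Many of the encoded proteins sense viral nucleic acid, stop viral translation or degrade viral RNA. Microglia, the resident macrophages of the brain, make and answer interferon, and in macrophages lipopolysaccharide (LPS), a cell wall component of Gram-negative bacteria, induces interferon beta through its Toll-like receptor.

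The cells were wild-type microglia from forebrains of pups aged 7 to 9 postnatal days, taken with CD11b microbeads, a marker that other myeloid cells carry too. They were plated at 40000 to 80000 cells per well and collected 6 hours after the addition of 500 nM recombinant Hevin, of 50 ng/mL LPS or of growth media alone (Media). Hevin is a protein secreted by astrocytes. Each treatment has 4 libraries of polyadenylated RNA numbered 1 to 4, and the deposited columns join the libraries of a number as Group 4 for number 1, Group 5 for number 2, Group 6 for number 3 and Group 7 for number 4. The labels do not say whether numbers are separate animals, litters or cultures, so p-values measure the spread between these libraries, which may be technical. Libraries of the same number deviated together in all 12 pairs, and results are therefore given without and with the number as a block in the model.

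The 12 libraries held 18343996 to 27361665 reads on genes, as recovered from the steps of the FPKM values. The lowest read count of any member in any library was 44, for Ifi44, and intervals from such counts would cover counting error only. Microglia markers such as Csf1r and Fcrls were present in every library, with a summed level over 13 markers of 1288 to 1923 FPKM in Hevin, 716 to 1033 FPKM in LPS and 764 to 1054 FPKM in Media. The libraries numbered 2 stand apart: 7 monocyte and neutrophil markers summed to 1904 to 2071 FPKM in the 3 libraries numbered 2, against 39.4 to 106 FPKM in the other 9. In such bulk samples fewer cells of a type and less RNA per cell cannot be told apart.

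Promoters of 4 members are shown first, because they hold different numbers of letter matches to the ISRE core and belong to genes that stood highest in these libraries. Each covers 250 bases before to 50 after the RefSeq start in build GRCm38.p6, in the direction of the gene, and capitals mark matches to the ISRE core GAAANNGAAA on either strand. Isg15 (chr4:156200769-156201068, minus strand) holds 3 overlapping matches that begin at -78, -72 and -66 from the start. Ifit1 (chr19:34640639-34640938, plus strand) holds 2 at -104 and -85, Rsad2 (chr12:26456403-26456702, minus strand) holds 1 at -120, and Oasl1 (chr5:114922990-114923289, plus strand) holds 0.
Isg15: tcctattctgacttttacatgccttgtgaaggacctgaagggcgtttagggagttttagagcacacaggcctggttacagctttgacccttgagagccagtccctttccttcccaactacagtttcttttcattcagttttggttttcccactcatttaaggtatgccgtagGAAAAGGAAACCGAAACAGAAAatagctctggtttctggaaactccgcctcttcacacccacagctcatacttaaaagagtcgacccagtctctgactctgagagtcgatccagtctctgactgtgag
Ifit1: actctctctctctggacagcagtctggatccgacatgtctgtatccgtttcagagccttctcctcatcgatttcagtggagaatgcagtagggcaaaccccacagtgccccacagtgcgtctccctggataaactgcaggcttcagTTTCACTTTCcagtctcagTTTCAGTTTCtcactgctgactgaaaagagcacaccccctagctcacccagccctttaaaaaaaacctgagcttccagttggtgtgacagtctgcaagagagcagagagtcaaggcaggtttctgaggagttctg
Rsad2: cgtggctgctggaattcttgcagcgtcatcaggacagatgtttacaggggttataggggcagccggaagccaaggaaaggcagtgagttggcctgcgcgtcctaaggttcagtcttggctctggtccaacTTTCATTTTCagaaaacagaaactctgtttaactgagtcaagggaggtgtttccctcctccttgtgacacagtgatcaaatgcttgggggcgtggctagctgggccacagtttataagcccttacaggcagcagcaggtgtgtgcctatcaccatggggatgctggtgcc
Oasl1: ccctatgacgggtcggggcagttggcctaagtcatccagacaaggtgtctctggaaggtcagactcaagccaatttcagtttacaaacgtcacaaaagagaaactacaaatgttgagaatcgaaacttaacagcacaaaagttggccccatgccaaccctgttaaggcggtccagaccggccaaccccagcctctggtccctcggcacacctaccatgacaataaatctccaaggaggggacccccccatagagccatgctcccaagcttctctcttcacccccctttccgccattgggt
A promoter sequence was matched for 26 of the 35 members. The ISRE core was in a window of 14 of these 26 (53.8%), against 3.99% of the 27025 genes with a promoter window. A STAT core, TTCNNNGAA, was in 6 of 26 (23.1%), against 9.55% of all genes, and an NF-kB core, GGGNNNNNCC, in 17 of 26 (65.4%), against 53.52% of all genes. The median LPS difference, in log2(FPKM + 1), was 1.65 for the 14 members with the ISRE core and 1.39 for the 12 without it, with ranges of 0.63 to 3.20 and 0.89 to 3.32. A match is only a match of letters, and these numbers are a description.

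The first comparison asks what LPS did to the antiviral genes. LPS libraries held more RNA of all 35 members than the Media library of the same number, in each of the 4 numbers. The summed FPKM of the members was 10863, 5571, 13100 and 13104 in LPS 1 to 4, against 2399, 936 and 3851 in Media 1 to 3 and 2436 in Media 4. In percent of the FPKM of all genes, this was 2.52, 1.32, 3.16 and 3.11 in LPS 1 to 4. The same percent was 0.727, 0.285, 1.21 and 0.758 in Media 1 to 4. The LPS difference had a median of 1.47 on the log2 scale, from 0.63 for Bst2 to 3.32 for Oasl1, beside a median of -0.02 over all genes. With the scaling factors taken out, the medians were 1.15 for the members and -0.29 for all genes. Without the block 19 of 35 members rose and 0 fell by limma at an adjusted p under 0.05, where 13.2% of all genes rose and 12.6% fell. At an unadjusted p under 0.05 the counts were 26 and 0, where 17.8% and 19.6% of all genes were. With the block 35 of 35 rose and 0 fell, where 21.5% and 22.2% of all genes did. Without LPS 4 the count without the block was 12, and without LPS 2 it was 27, where shares of all genes are not given. Members' standard errors were 0.24 to 0.72 without the block and at most 0.22 with it. All LPS libraries lay above all Media libraries for 12 members, against 13.3% of all genes, and for 0 all lay below, against 12.3%. These 12 were Ifih1, Ifi205, Ifit1, Ifit2, Oasl1, Rsad2, Cmpk2, Mx1, Mx2, Isg15, Herc6 and Parp14. Within numbers the median LPS difference was 1.46, 1.605, 1.29 and 1.95 for numbers 1 to 4.

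Markers of other cell types moved with LPS. With the block 5 of the 6 monocyte and neutrophil markers tested rose in LPS (21.5% of all genes), and 0 did without it (13.2%). Astrocyte markers, 6 in all, summed to 112 to 233 FPKM in LPS and 49.8 to 85.0 FPKM in Media, of which Gja1, a gap junction gene, made up most, at 174 FPKM in LPS and 60.7 FPKM in Media on average. Aqp4, Slc1a2 and Aldoc, of the same list, were too low to be tested. The part of these markers in the result was not tested.

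**Figure D1:**
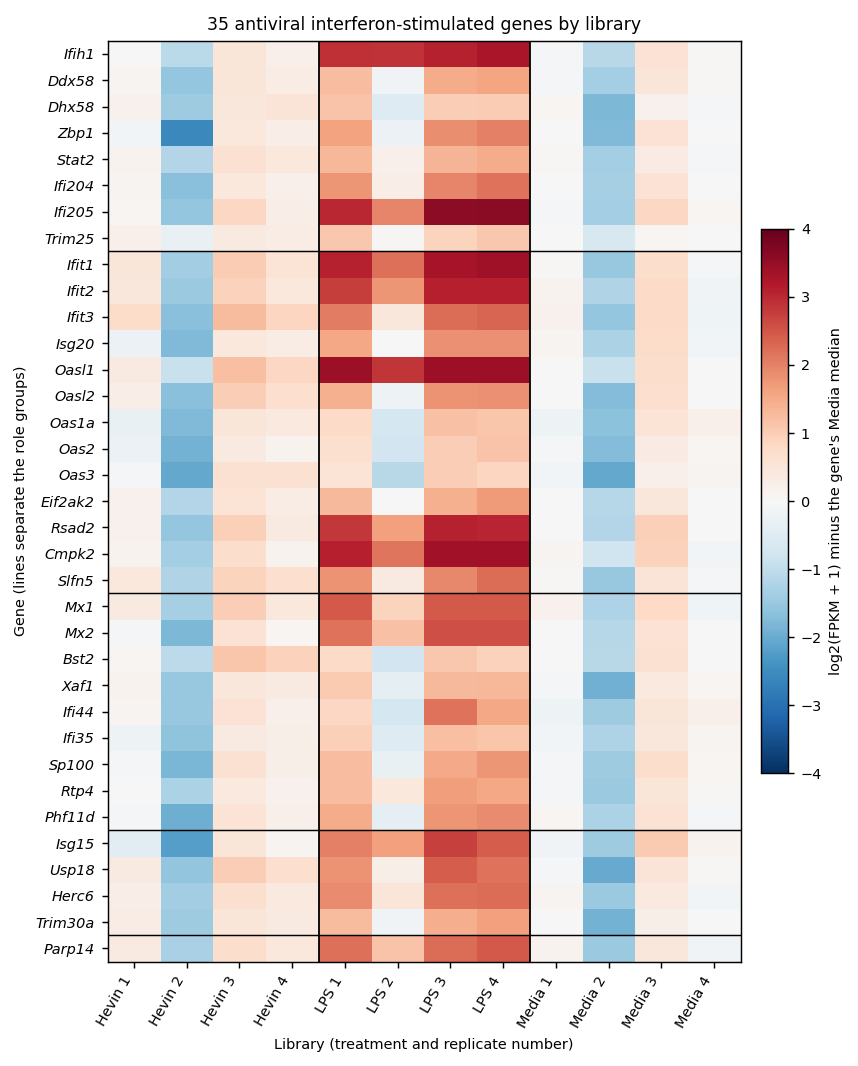
Levels of the 35 genes (rows, in order of role) in the 12 libraries (columns), coloured by log2(FPKM + 1) minus the gene's median over the 4 Media libraries. The LPS columns are the reddest, and the columns numbered 2 are the lowest of each treatment for all 35 genes.

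The second comparison asks the same of Hevin. No member was called in Hevin without the block, and 14 of the 35 kept 1 direction in all 4 numbers. Their summed FPKM was 2655, 864, 4066 and 3228 in Hevin 1 to 4. The Hevin difference had a median of 0.13 over the members, from -0.41 for Isg15 to 0.50 for Ifit3, beside a median of 0.00 over all genes. Without the block 0 of 35 members rose and 0 fell by limma, where 4.27% of all genes rose and 3.1% fell. At an unadjusted p under 0.05 the count was also 0, where 10.7% of all genes rose and 9.83% fell, and voom on recovered reads without the block called 0. With the block 5 members rose and 0 fell, where 10.8% of all genes rose and 10.6% fell. Those 5 were Dhx58, Trim25, Slfn5, Usp18 and Trim30a. The count with the block was 9 without number 2, 4 without number 1, 3 without number 3 and 3 without number 4, where Isg20, an exonuclease gene, was the 1 called lower. The 9 without number 2 were all higher and were Slfn5, Usp18, Trim30a, Ifit1, Ifit3, Oasl1, Oasl2, Oas3 and Bst2. Voom on recovered reads with the block called 10 higher. Usp18 was called in all 4 fits with the block and a number left out, Slfn5 and Trim30a in 3, and Dhx58 and Trim25 in 1. Shares of all genes called with a number left out or with voom are not given here. These counts are therefore not set against all genes, and no conclusion is drawn from them. Without the block, leaving out Media 2 turned the sign of the Hevin difference for 19 of the 35 members, with Dhx58, Usp18 and Trim30a at -0.13, -0.06 and -0.15. Leaving out Hevin 2 turned it for 11, and leaving out Hevin 3 or Media 3 for 10 each. These fits drop 1 library but keep the same number in the other treatments, so level differences between numbers enter the Hevin difference. Within numbers, Dhx58, Usp18 and Trim30a were higher in Hevin than in Media in all 4. Hevin and Media libraries overlapped for all 35 members, while 9.05% of all genes lay above Media without overlap and 7.55% below. In all 4 numbers 13 members were higher in Hevin and 1, Isg15, was lower, where 23.4% and 23.6% of all genes were. The median Hevin difference within numbers was 0.14, -0.09, 0.08 and 0.32 for numbers 1 to 4, with 27, 15, 21 and 33 of the 35 members higher. Microglia markers moved with Hevin. Of 13, 5 were higher than in Media without the block (4.27% of all genes) and 10 with it (10.8%). The part of these markers in the Hevin result was not tested.

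**Figure D2:**
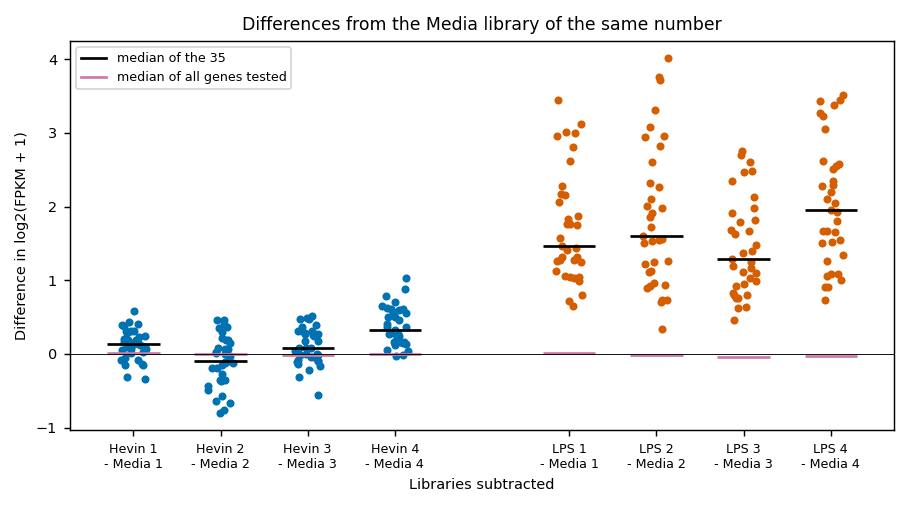
Each point is 1 of the 35 genes, as its difference in log2(FPKM + 1) from the Media library of the same number, for Hevin on the left and LPS on the right. Black lines are the medians of the 35 genes, pink lines those of all genes tested, and the 35 points lie above 0 in each LPS column.

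The members are given by role, from the sensors of foreign nucleic acid to the effectors. The sensing and signalling group has 8 members. In LPS 5 rose without the block (13.2% of all genes) and 8 with it (21.5% of all genes). Ifih1 encodes MDA5, a cytosolic sensor of long double-stranded RNA. Ifih1 had 29.6, 13.5, 41.9 and 34.6 FPKM in Hevin 1 to 4, 234, 229.8, 259 and 298 FPKM in LPS 1 to 4, and 29.2, 13.3, 45.3 and 30.7 FPKM in Media 1 to 4. All 4 LPS libraries lay within a narrow band, LPS 2 included, far above those of Hevin and Media, where library 2 was the lowest. The LPS difference of Ifih1 was 3.17 ± 0.36 (SE; limma adjusted p = 6.06e-05), a fold of 8.60 between mean FPKM. Ifi205 encodes a DNA-binding protein of the interferon-inducible p200 family. Ifi205 had 35.002, 10.6, 59.6 and 39.9 FPKM in Hevin 1 to 4, 279, 131, 412 and 417 FPKM in LPS 1 to 4, and 31.1, 12.3, 60.1 and 35.5 FPKM in Media 1 to 4. LPS and Media did not overlap, at a difference of 3.18 ± 0.56 (SE; limma adjusted p = 0.00152). Ifi204, of the same family, senses DNA in the mouse. Ifi204 had 153, 43.4, 191 and 163 FPKM in Hevin 1 to 4, 484, 172, 546 and 648 FPKM in LPS 1 to 4, and 143, 55.9, 211 and 140.5 FPKM in Media 1 to 4. LPS 2 lay inside the range of Media, and the LPS difference was 1.73 ± 0.54 (SE; limma adjusted p = 0.035, and 8.47e-07 with the block; 3.79e-09 to 0.127 over all alternatives). The call of Ifi204 without the block ended under quantile normalization and with no scaling factors. Without LPS 1, LPS 3, LPS 4, Media 1, Media 2 or Media 4 the adjusted p of Ifi204 was 0.0692, 0.0832, 0.095, 0.058, 0.0903 and 0.0638 in turn. The p200 genes lie in a cluster of close relatives, so that their separate values are uncertain.

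Dhx58 encodes LGP2, which tunes signalling of the RNA sensors. Dhx58 had 18.6, 5.43, 22.3 and 23.6 FPKM in Hevin 1 to 4, 36.9, 10.9, 33.3 and 33.5 FPKM in LPS 1 to 4, and 17.2, 4.001, 18.4 and 15.3 FPKM in Media 1 to 4. Library 2 was the lowest of its treatment throughout, and Hevin was above Media in each of the 4 numbers. The Hevin difference was 0.33 ± 0.54 without the block (limma adjusted p = 0.816) and 0.33 ± 0.10 with it (adjusted p = 0.0316; 0.0203 to 0.949 over all alternatives). The LPS difference of Dhx58 was 1.05 ± 0.54 (SE; limma adjusted p = 0.177, and 8.62e-06 with the block; 4.22e-07 to 0.416 over all alternatives). Trim25 encodes a ubiquitin ligase that activates the RNA sensor RIG-I. Trim25 had 87.6, 61.5, 99.1 and 94.2 FPKM in Hevin 1 to 4, 160.5, 79.5, 142 and 161 FPKM in LPS 1 to 4, and 77.05, 48.2, 81.1 and 75.3 FPKM in Media 1 to 4. Hevin and Media overlapped through Hevin 2, the only Hevin library that lay below any Media library. Its Hevin difference was 0.28 ± 0.24 without the block (limma adjusted p = 0.589) and 0.28 ± 0.08 with it (adjusted p = 0.0309; 0.0158 to 0.886 over all alternatives). In LPS the difference of Trim25 was 0.91 ± 0.24 (SE; limma adjusted p = 0.016), and this call ended under quantile normalization and with no scaling factors. The remaining members of this group, Ddx58 (RIG-I), Zbp1 (a sensor of Z-form nucleic acid) and Stat2, had LPS differences of 1.26, 1.61 and 1.35, of which the difference of Stat2 passed without the block (limma adjusted p = 0.0434, and 0.155, 0.0826 and 0.0582 under quantile normalization, no scaling factors and upper quartile scaling). Limma with the block gave Trim25 and Stat2 an adjusted p of 7.37e-06 and 1.57e-06 in LPS. In fits without the block and without Hevin 1, Hevin 4, LPS 1, LPS 3, LPS 4, Media 1, Media 2 or Media 4 the adjusted p of Stat2 was 0.0557, 0.0532, 0.0874, 0.0965, 0.108, 0.0602, 0.109 and 0.0715 in turn.

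The effectors on viral RNA, translation and nucleotides hold 13 members. In LPS 7 rose without the block (13.2% of all genes) and 13 with it (21.5% of all genes). Rsad2 encodes viperin, a radical SAM enzyme that makes a chain-terminating nucleotide, and had the highest mean level of the 35. Rsad2 had 304, 93.4, 524 and 348 FPKM in Hevin 1 to 4, 1942, 853, 2299 and 2239 FPKM in LPS 1 to 4, and 276, 119.7, 526 and 269 FPKM in Media 1 to 4. Its mean was 1834 ± 672 FPKM in LPS and 298 ± 168 FPKM in Media (SD, n = 4 each), at a difference of 2.70 ± 0.54 (SE; limma adjusted p = 0.00353). Cmpk2, its neighbour in the genome, encodes a nucleotide kinase and had an LPS difference of 2.96 ± 0.45 (SE; limma adjusted p = 5.70e-04). Oasl1 encodes a relative of the oligoadenylate synthetases that lacks their enzyme activity. Oasl1 had 189, 79.7, 344 and 263 FPKM in Hevin 1 to 4, 1588, 1088, 1591 and 1585 FPKM in LPS 1 to 4, and 145, 79.2, 244 and 151 FPKM in Media 1 to 4. LPS 1, 3 and 4 were nearly equal and LPS 2 was lower, still far above all Media libraries. Its mean of 1463 ± 250.01 FPKM in LPS stood against 155 ± 67.95 FPKM in Media (SD, n = 4 each), at 3.32 ± 0.41 (SE; limma adjusted p = 1.33e-04). Ifit1 encodes a protein that binds viral RNA with an incompletely capped end. Ifit1 had 114, 30.4, 163 and 119 FPKM in Hevin 1 to 4, 688, 372, 807 and 848 FPKM in LPS 1 to 4, and 84.00, 27.3, 132 and 77.3 FPKM in Media 1 to 4. LPS and Media did not overlap, and the difference was 3.20 ± 0.54 (SE; limma adjusted p = 0.00116).

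Within this group the differences in LPS were unequal. Ifit2 and Ifit3, relatives of Ifit1, had LPS differences of 2.80 ± 0.53 and 1.96 ± 0.67. The oligoadenylate synthetase genes Oas1a, Oas2 and Oas3, whose products activate RNase L, had the smallest ones of the group, at 0.86 ± 0.59, 0.84 ± 0.58 and 0.77 ± 0.68, and passed with the block only. Oasl2, Isg20 (an exonuclease) and Eif2ak2 (PKR, a kinase that blocks translation) lay at 1.47, 1.43 and 1.26 and also passed with the block only. Slfn5 encodes a member of the Schlafen family. Slfn5 had 72.6, 22.6, 100.4 and 85.1 FPKM in Hevin 1 to 4, 189, 68.5, 206 and 255 FPKM in LPS 1 to 4, and 55.02, 18.1, 77.3 and 51.9 FPKM in Media 1 to 4. Hevin was above Media in each number, although the groups overlapped. Its Hevin difference was 0.44 ± 0.55 without the block (limma adjusted p = 0.743) and 0.44 ± 0.11 with it (adjusted p = 0.018; 0.00548 to 0.991 over all alternatives). The LPS difference of Slfn5 was 1.83 ± 0.55 (SE; limma adjusted p = 0.0288), and this call without the block ended under quantile normalization. Limma with the block gave Slfn5 an adjusted p of 4.60e-07 in LPS. In fits without the block and without LPS 1, LPS 3, LPS 4, Media 2 or Media 4 the adjusted p of Slfn5 was 0.0592, 0.0696, 0.0812, 0.0735 and 0.0537 in turn. The call of Ifit3 ended under other scalings, at an adjusted p of 0.132, 0.0633 and 0.0572 for quantile normalization, no scaling factors and upper quartile scaling. Limma with the block gave Ifit3 an adjusted p of 8.92e-06 in LPS. In fits without the block and without Hevin 1, Hevin 4, LPS 1, LPS 3, LPS 4, Media 1, Media 2 or Media 4 the adjusted p of Ifit3 was 0.0588, 0.0591, 0.0914, 0.108, 0.116, 0.0698, 0.123 and 0.0932 in turn. Ifit3 and Ifit3b, and Oas1a and Oas1g, are near copies, and how reads that match both were counted is not given in the sources used here.

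**Figure D3:**
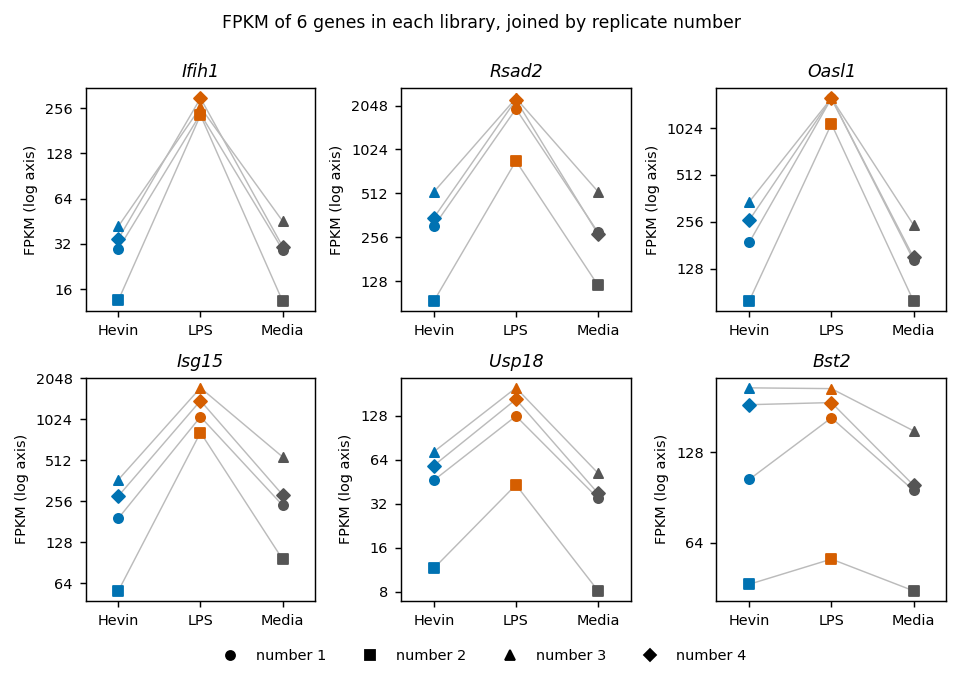
FPKM on a log axis of 6 genes in Hevin, LPS and Media, with a mark for each replicate number and grey lines that join libraries of the same number. The libraries numbered 2 (squares) are the lowest in each treatment, and Bst2 alone is as high in Hevin 3 and 4 as in LPS 3 and 4.

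The GTPases, the tether and other effectors hold 9 members. In LPS 3 rose without the block (13.2% of all genes) and 9 with it (21.5% of all genes). Bst2 encodes tetherin, which holds budding virions at the cell surface. Bst2 had 104, 46.5, 209.6 and 184 FPKM in Hevin 1 to 4, 167, 56.4, 208 and 187 FPKM in LPS 1 to 4, and 95.5, 44.2, 151 and 99.3 FPKM in Media 1 to 4. Hevin 3 and 4 were as high as LPS 3 and 4, and the 3 treatments overlapped. The LPS difference of Bst2, the smallest of the 35, was 0.63 ± 0.53 (SE; limma adjusted p = 0.43, and 0.00273 with the block; 3.76e-04 to 0.812 over all alternatives). Rtp4 encodes a chaperone of receptors in the cell membrane. Rtp4 had 86.2, 34.5, 113 and 95.03 FPKM in Hevin 1 to 4, 199, 113, 274 and 249.8 FPKM in LPS 1 to 4, and 82.4, 29.5, 119 and 87.3 FPKM in Media 1 to 4. LPS 2 lay inside the range of Media, and the difference was 1.47 ± 0.45 (SE; limma adjusted p = 0.033); this call ended under quantile normalization and with no scaling factors. Limma with the block gave Rtp4 an adjusted p of 9.70e-07 in LPS. In fits without the block and without LPS 1, LPS 3, LPS 4, Media 1, Media 2 or Media 4 the adjusted p of Rtp4 was 0.0579, 0.0844, 0.0829, 0.0534, 0.075 and 0.053 in turn. Ifi35 encodes an interferon-induced leucine zipper protein. Ifi35 had 59.97, 21.95, 87.3 and 81.7 FPKM in Hevin 1 to 4, 132, 48.02, 159.7 and 149.7 FPKM in LPS 1 to 4, and 63.6, 28.4, 93.7 and 73.98 FPKM in Media 1 to 4. LPS 2 lay below the other LPS libraries and inside the range of Media, at a difference of 0.89 ± 0.50 (SE; limma adjusted p = 0.221, and 8.15e-06 with the block; 2.51e-07 to 0.524 over all alternatives). The dynamin-like GTPase genes Mx1 and Mx2 had LPS differences of 2.16 ± 0.54 and 2.26 ± 0.50, which passed without the block. GENCODE M21, the annotation used for positions, lists Mx2 as a polymorphic pseudogene, so its RNA need not stand for a working protein. Xaf1, Ifi44, Sp100 (a nuclear body protein) and Phf11d had differences of 1.21, 1.195, 1.23 and 1.36 and passed with the block only.

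The ubiquitin and ISG15 system holds 4 members. In LPS 3 rose without the block (13.2% of all genes) and 4 with it (21.5% of all genes). Isg15 encodes a ubiquitin-like protein that is joined to other proteins. Isg15 had 192, 56.2, 369 and 279.7 FPKM in Hevin 1 to 4, 1070.3, 819.7, 1746 and 1405 FPKM in LPS 1 to 4, and 239, 95.8, 542 and 285 FPKM in Media 1 to 4. The Hevin library was below the Media library in each number, and no test without or with the block called it. In LPS its mean was 1260.3 ± 403 FPKM, against 291 ± 186 FPKM in Media (SD, n = 4 each), at 2.31 ± 0.58 (SE; limma adjusted p = 0.0124), and this call ended under quantile normalization (adjusted p = 0.0997). Usp18 encodes the protease that removes ISG15 and also curbs signalling from the interferon receptor. Usp18 had 46.2, 11.6, 72.4 and 58.3 FPKM in Hevin 1 to 4, 127, 43.04, 198 and 165 FPKM in LPS 1 to 4, and 34.8, 8.13, 51.6 and 37.6 FPKM in Media 1 to 4. Hevin was above Media in each number, by 0.40, 0.46, 0.48 and 0.62 on the log2 scale in numbers 1 to 4. The Hevin difference of Usp18 was 0.49 ± 0.66 without the block (limma adjusted p = 0.772) and 0.49 ± 0.08 with it (adjusted p = 0.00129; 4.47e-04 to 0.981 over all alternatives). Its LPS difference was 2.03 ± 0.66 (SE; limma adjusted p = 0.0414), and this call ended under quantile normalization (0.0899), with no scaling factors (0.0546) and with upper quartile scaling (0.0502). Limma with the block gave Isg15 and Usp18 an adjusted p of 1.28e-05 and 1.76e-08 in LPS. In fits without the block and without Hevin 1, Hevin 4, LPS 1, LPS 3, LPS 4, Media 1, Media 2 or Media 4 the adjusted p of Usp18 was 0.0531, 0.0514, 0.0751, 0.104, 0.101, 0.0635, 0.103 and 0.0632 in turn. Usp18 differs in this from Isg15, since the Hevin signs of enzyme and substrate were opposite in all 4 numbers; the difference between the genes was not tested.

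Trim30a encodes a ubiquitin ligase family member known in the mouse to dampen Toll-like receptor signalling. Trim30a had 93.2, 27.4, 106 and 95.9 FPKM in Hevin 1 to 4, 183, 67.7, 210.2 and 235 FPKM in LPS 1 to 4, and 76.4, 19.7, 88.1 and 74.3 FPKM in Media 1 to 4. Library 2 was the lowest of each treatment, and Hevin was above Media in each number. The Hevin difference of Trim30a was 0.34 ± 0.56 without the block (limma adjusted p = 0.816) and 0.34 ± 0.09 with it (adjusted p = 0.0161; 0.00832 to 0.936 over all alternatives). In LPS the difference of Trim30a was 1.47 ± 0.56 (SE; limma adjusted p = 0.0717, and 3.05e-07 with the block; 1.71e-09 to 0.197 over all alternatives). Herc6, the gene of the ligase that joins ISG15 to proteins in the mouse, had an LPS difference of 1.98 ± 0.53 (SE; limma adjusted p = 0.0169). Without LPS 4 and without the block the adjusted p of Herc6 was 0.0506, and limma with the block on all libraries gave 8.24e-08. The ADP-ribosylation group is Parp14 alone, which encodes a mono-ADP-ribosyltransferase. Parp14 had 148, 46.3, 187 and 156 FPKM in Hevin 1 to 4, 532, 253, 547 and 637 FPKM in LPS 1 to 4, and 126, 40.7, 157 and 106 FPKM in Media 1 to 4. All LPS libraries were above all Media libraries, at a difference of 2.26 ± 0.49 (SE; limma adjusted p = 0.00539).

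**Figure D4:**
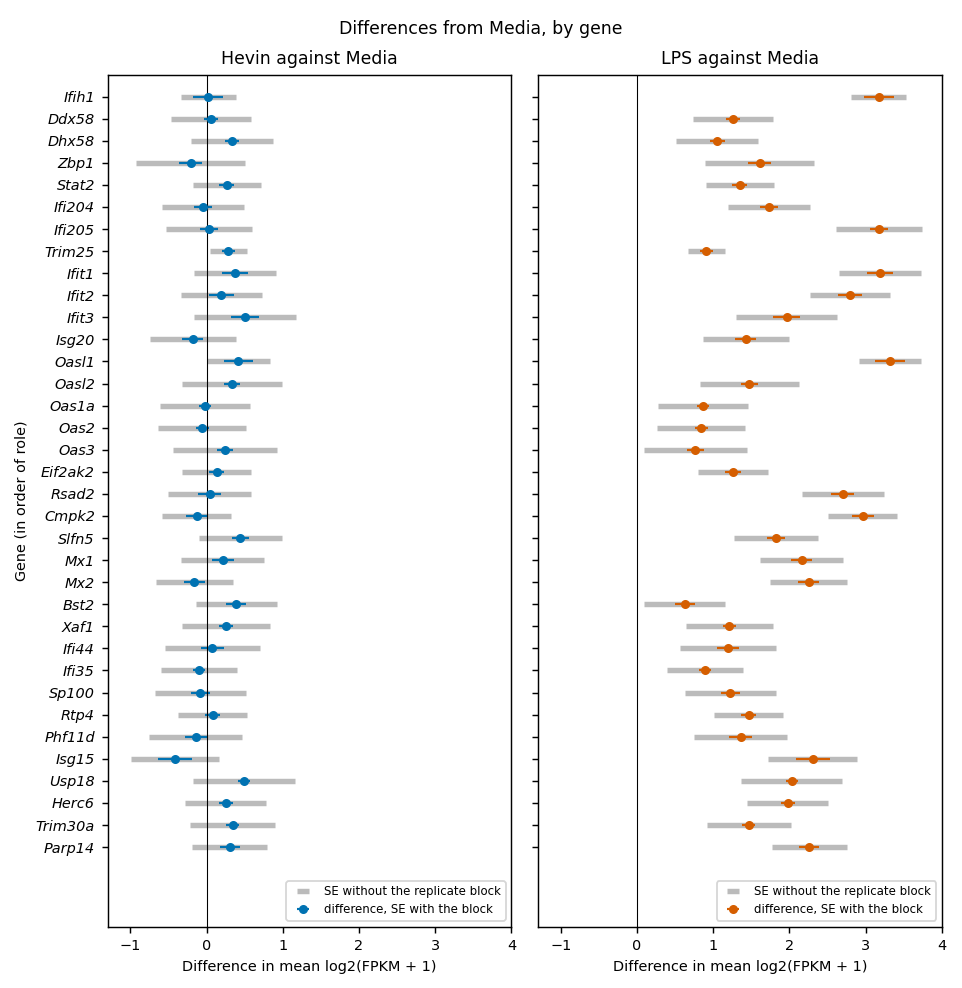
Differences from Media in mean log2(FPKM + 1) for the 35 genes in order of role, Hevin on the left and LPS on the right. Thick grey bars are SEs without the replicate block and thin coloured bars SEs with it; the Hevin points lie between -0.41 and 0.50 and the LPS points between 0.63 and 3.32.

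Hevin against LPS gave the third comparison, which shares its libraries with the other two. Members were lower in Hevin than in LPS in all 4 numbers for 34 of 35, where 30.5% of all genes were. The median difference was -1.46 on the log2 scale, from -3.15 for Ifi205 and Ifih1 to -0.24 for Bst2. Limma called 15 members lower without the block, where 19.7% of all genes were called, and 34 with the block, where 28% of all genes were. Limma called 0 higher, where 22% and 29.9% of all genes were in these fits. Without LPS 2 the first count of lower members was 28, where the share of all genes is not given. Libraries of Hevin and LPS did not overlap for 11 members, all lower in Hevin, against 17.5% of all genes, and for 0 with Hevin higher, against 20% of all genes. Bst2 was the exception, at -0.24 ± 0.53 (limma adjusted p = 0.753, and 0.135 with the block; 0.0567 to 0.96 over all alternatives). The sign was positive under quantile normalization (0.22), with no scaling factors (0.11) and without Hevin 2 (0.20). Its Hevin minus LPS difference was -0.68, -0.27, 0.01 and -0.02 in numbers 1 to 4.

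The libraries that the deposited columns label Group 5, number 2, held the least RNA of every member. All 35 members were lowest in library 2 of the 4 in Hevin, in LPS and in Media at once, which held for 8.58% of all genes. In 1 treatment alone that held for 25.5% of all genes in Hevin, 28.5% in LPS and 29.7% in Media. With treatment in the model, number 2 was lower than the other 3 numbers for 35 of 35 members, where 9.54% of all genes were lower. The median difference was -1.68 on the log2 scale, from -2.26 ± 0.14 for Zbp1 (limma adjusted p = 1.68e-06) to -0.74 ± 0.08 for Trim25 (adjusted p = 7.08e-05), beside a median of 0.00 over all genes. Ifih1 stood at -0.94 ± 0.19 (adjusted p = 0.00524), Oasl1 at -1.12 ± 0.18 (adjusted p = 0.00168) and Usp18 at -2.10 ± 0.07 (adjusted p = 2.53e-08). Each number has 1 library per treatment. Errors and p-values of number contrasts therefore measure how a number's difference varies over treatments, and no spread between preparations. In median over members, library 2 held 0.246 of the mean of the other libraries in Hevin, 0.323 in LPS and 0.295 in Media. For Ifih1 that ratio was 0.872 in LPS, the highest of the 35.

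Monocyte and neutrophil markers moved with number 2. All 6 tested markers, Ly6c2, Plac8, S100a8, S100a9, Ngp and Camp, were higher in number 2, and Ccr2, too low to be tested, reached 1.17 FPKM at most. Of the 13 microglia markers 5 were higher in number 2 and 0 were lower, where 11.3% and 9.54% of all genes were. All 3 astrocyte markers tested of 6, Gfap, Slc1a3 and Gja1, were lower in number 2, as the members were. Their part in the result was not tested. Border macrophage markers summed to 657 to 805 FPKM in number 2, against 576 to 925 FPKM in the other libraries. Whether number 2 was a separate preparation is not given in the sources used here.

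**Figure D5:**
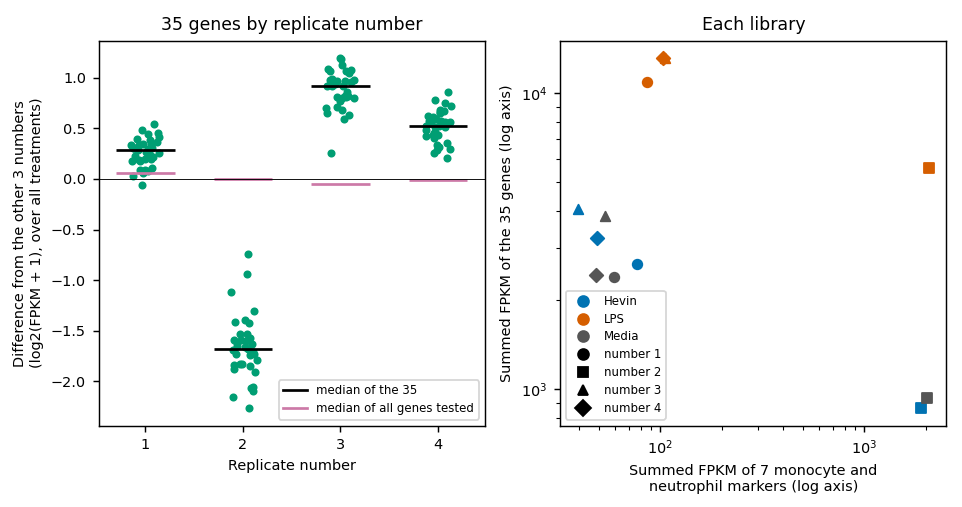
On the left, each point is the difference of 1 of the 35 genes between a replicate number and the other 3, in log2(FPKM + 1) over all treatments; number 2 lies between -2.26 and -0.74. On the right, each mark is a library, with the summed FPKM of 7 monocyte and neutrophil markers against that of the 35 genes, both on log axes; the libraries numbered 2 lie far to the right and are the lowest of their treatment.

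Number 3 was at the other end. Its members were higher than in the other 3 numbers for 35 of 35, where 9.69% of all genes were higher, at a median difference of 0.92. The other numbers include number 2, so that these contrasts are not independent of each other. Library 3 was the highest of its 4 for 33 members in Hevin, 12 in LPS and 35 in Media, where 18.8%, 18% and 20.6% of all genes were, and for 11 in all treatments at once (6.87% of all genes). Numbers 4 and 1 had 23 and 14 members higher, where 3.28% and 17.3% of all genes were higher, and 0 lower, where 3.68% and 10.7% were. The 14 of number 1 were 4 with upper quartile scaling, 2 with quantile normalization and 8 without the trend. Endothelial markers, 5 in all, summed to 138 to 156 FPKM in number 3. They summed to 26.3 to 30.0 FPKM in number 1, 60.7 to 72.5 FPKM in number 2 and 91.7 to 106 FPKM in number 4. Number 1, not number 2, was thus the lowest, and the part of these markers in the result was not tested.

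The responses of the members were compared between numbers by an interaction term. The LPS or Hevin effect in a number differed from its mean in the other 3 for 0 of 35 members and for 0% of all genes by limma at an adjusted p under 0.05, in each of the 8 contrasts. At an unadjusted p under 0.05, the LPS effect in number 2 differed for 6 members (14.6% of all genes) and the Hevin effect for 4 (6.32% of all genes). The LPS effect in number 3 did so for 10 members (1.95%) and in number 4 for 7 (9.28%). Ifih1 had the largest such difference in number 2, where its LPS effect was higher by 1.12 (adjusted p = 0.139), and Isg15 followed at 1.04 (adjusted p = 0.141). At that unadjusted threshold number 1 gave 0 members for Hevin (2.02% of all genes) and for LPS (3.4%), and the Hevin effect gave 0 in number 3 (0.756%) and 2 in number 4 (1.8%).

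Further genes of the pathway were also compared, and most of those tested were lower in number 2, as the members were. Of 63 further genes of interferon signalling, sensing, ISG15 conjugation and interferon response, 61 were tested. In LPS 30 were higher and 4 lower without the block, where 13.2% and 12.6% of all genes were, and 52 and 4 with it, where 21.5% and 22.2% were. In Hevin 5 were higher and 4 lower without the block, where 4.27% and 3.1% of all genes were, and 15 and 7 with it, where 10.8% and 10.6% were. Number 2 was lower for 45 and higher for 0, where 9.54% and 11.3% of all genes were. By list, 32 of 33 further interferon-stimulated genes and 6 of 18 signalling genes were lower. The same held for 5 of 8 sensors and adaptors and for 2 of 2 ISG15 conjugation genes. Ifnb1 encodes interferon beta itself. Ifnb1 had 0.281, 0.509, 0.04096 and 0.138 FPKM in Hevin 1 to 4, 9.56, 23.5, 28.2 and 17.4 FPKM in LPS 1 to 4, and 0.638, 1.27, 1.098 and 0.552 FPKM in Media 1 to 4. LPS 2 lay within the range of the other LPS libraries. The part of interferon beta in the levels of number 2 was not tested. Its mean was 19.7 ± 8.07 FPKM in LPS and 0.8903 ± 0.3503 FPKM in Media (SD, n = 4 each), at 3.37 ± 0.27 (SE; limma adjusted p = 3.85e-06). The number 2 difference of Ifnb1 was 0.41 ± 0.20 (limma adjusted p = 0.174).

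Socs3, a feedback inhibitor of JAK kinases, had the largest LPS difference of these genes. Socs3 had 17.9, 10.8, 15.1 and 14.4 FPKM in Hevin 1 to 4, 504, 259, 454 and 499 FPKM in LPS 1 to 4, and 21.9, 13.5, 17.3 and 17.2 FPKM in Media 1 to 4. The LPS difference of Socs3 was 4.51 ± 0.22 (SE; limma adjusted p = 7.48e-08). Slfn2, Ifi203, Slfn9 and Ifit3b, relatives of members, followed Ifnb1 at 2.28, 2.17, 2.10 and 2.02. Without LPS 1, LPS 3, LPS 4, Media 2 or Media 4 the adjusted p of Ifit3b was 0.0547, 0.0722, 0.0744, 0.0744 and 0.0616 in turn. Of the 18 interferon signalling genes tested, 4 were higher and 0 lower in Hevin without the block, where 4.27% and 3.1% of all genes were. Jak2, one of them and a kinase of the interferon gamma and other cytokine receptors, had a Hevin difference of 0.96 ± 0.13 (SE; limma adjusted p = 9.55e-04). Jak2 had 48.6, 42.8, 42.8 and 43.4 FPKM in Hevin 1 to 4, 49.1, 48.4, 68.2 and 74.4 FPKM in LPS 1 to 4, and 23.1, 19.97, 24.2 and 22.1 FPKM in Media 1 to 4. Hevin and Media did not overlap for Jak2. Mavs, the adaptor of the RNA sensors, was higher by 0.65 ± 0.12 (limma adjusted p = 0.00572). Lower in Hevin were Ikbke, a kinase that activates IRF factors, at -1.02 ± 0.17 (limma adjusted p = 0.00336), and Ticam1, the adaptor TRIF, at -0.65 ± 0.09 (adjusted p = 0.00103). The membrane proteins' genes Ifitm2 and Ifitm1 were lower at -0.88 ± 0.24 and -0.84 ± 0.20 (limma adjusted p = 0.0475 and 0.0219). The call of Ifitm2 ended with a pseudocount of 5, with no filter on low values and without the trend (limma adjusted p = 0.0502, 0.0589 and 0.053). It also ended with upper quartile scaling, quantile normalization and no scaling factors (limma adjusted p = 0.075, 0.0594 and 0.0759). Without Hevin 1, Hevin 2, Hevin 3, Hevin 4, LPS 1, LPS 3, Media 1, Media 3 or Media 4 the adjusted p of Ifitm2 was 0.126, 0.112, 0.0704, 0.0695, 0.0572, 0.0562, 0.0566, 0.137 and 0.13 in turn. Without Media 2, Media 3 or Media 4 the adjusted p of Ifitm1 was 0.0641, 0.05004 and 0.0514 in turn.

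Irf9 and Irf7, named after their values were seen, encode the DNA-binding partner of the STAT proteins and a factor that amplifies interferon production. The number 2 difference was -0.96 ± 0.07 for Irf9 and -2.15 ± 0.11 for Irf7 (limma adjusted p = 6.11e-06 and 3.08e-07).

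Positions of the members were taken from GENCODE M21 on GRCm38. All 35 were found, and none shares exon bases with another gene that has a row in the expression table. Isg15 spans bases 156199424 to 156200818 of chromosome 4 on the minus strand, and Oasl1 spans bases 114923240 to 114937915 of chromosome 5 on the plus strand. Exons of 4 members overlap a gene model on the same strand and those of 6 one on the opposite strand. The kit marks strand, but whether reads were counted by strand is not given in the sources used here.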

How the data were processed

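RNA of 12 microglia libraries, 4 each of Hevin, LPS and Media, was measured with strand-marked poly(A) libraries from 100 ng RNA and reads of 100 bases on both ends, per the labels' protocols. The authors deposited FPKM values per gene in 1 table. Per the submitters' processing notes, the tools were Bowtie2 2.3.5.1, Subread 1.6.3 and its featureCounts, edgeR 3.30.3, R 4.0.0, Trimmomatic 0.39 and FastQC 0.11.7, and the build was mm10. The notes give no roles or order. How multi-mapping reads and strand were treated was not stated. In all 14541 rows (100%) the values were whole multiples of 1 read within 0.1, with 18343996 to 27361665 reads per library and scaling factors of 0.804 to 1.16 behind the FPKM values.

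Groups and numbers came from the titles. Values were tested as log2(FPKM + 1), which understates changes of low genes, with limma 3.58.1 in R 4.3.3 with a mean-variance trend and all 12 libraries in 1 fit. Genes needed 1 FPKM in at least 4 libraries. P-values were adjusted by Benjamini-Hochberg over all 11242 genes, and the threshold was 0.05. The main model has no block. Same-numbered libraries deviated together from their group means (correlation 0.230 to 0.784, each of 12 pairs above 0.1), which was taken as pairing. Values with the number as a block are given where they change a call. Each number was also set against the other 3 with treatment in the model, and interaction terms compared treatment effects between numbers. Alternatives were other pseudocounts, filters and scalings, the block, leaving out libraries or number 2, and voom on recovered reads. Voom with the block and the block with number 1, 3 or 4 left out were chosen after seeing the data. Fits and read recovery were tested on simulated data. The members, the role groups and the further lists were chosen with earlier results of these data known. Values in every library are given for the 3 members of each role with the highest mean FPKM, for members called in Hevin against Media, for any not called in LPS with the block (0) and for the largest LPS difference; of the further genes, the 6 largest LPS differences and up to 6 Hevin calls are named. Promoters came from RefSeq and positions from GENCODE M21, which annotates GRCm38.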

Additional observations from a re-analysis of the deposited data

Results flagged for a closer look

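In 4 of 105 sets of 4 libraries (35 genes in 3 treatments), the lowest library stood far from the rest, and chance flags about 1 in 20 such sets. Each of them was the library numbered 2. Dhx58 had 10.9 FPKM in LPS 2, against 33.3 to 36.9 FPKM in the other LPS libraries. Oasl1 had 1088 FPKM in LPS 2, against 1585 to 1591 FPKM. Mx1 had 36.3 FPKM in LPS 2, against 109 to 110.2 FPKM. Trim30a had 27.4 FPKM in Hevin 2, against 93.2 to 106 FPKM in the other Hevin libraries. All 3 libraries numbered 2 also held the high levels of monocyte and neutrophil markers given above, whose part in these values was not tested.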

How the results depend on the processing

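The replicate block moved the counts most. With the block 5 members rose in Hevin against Media (0 without it), 35 rose in LPS against Media (19 without it) and 34 fell in Hevin against LPS (15 without it). Voom on recovered reads with the block called 10, 35 and 34. With the block and number 2 left out, the counts were 9, 35 and 34, and with number 1, 3 or 4 left out they were 4, 3 and 3 for Hevin against Media, 35 each for LPS against Media and 34 each for Hevin against LPS. Without the block and without the 3 libraries numbered 2, 34 rose in LPS against Media and 33 fell in Hevin against LPS. Leaving out 1 library without the block gave 12 to 27 for LPS against Media and 11 to 28 for Hevin against LPS. Quantile normalization gave 11 for LPS against Media. For number 1 against the other numbers 14 members were called, and 4 with upper quartile scaling, 2 with quantile normalization and 8 without the trend. The cause of these changes was not tested. Shares of all genes called are given above for the main fits without and with the block only.

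With 1 library left out and no block, the Hevin against Media difference ran from -0.13 to 0.78 for Dhx58, from -0.058 to 1.05 for Usp18 and from -0.15 to 0.79 for Trim30a. The Hevin against LPS difference ran from -1.003 to 0.083 for Oas3 and from -0.67 to 0.20 for Bst2, which was 0.22 under quantile normalization and 0.11 with no scaling factors. Over the 98 differences of single genes given in the text, 2231 values under alternatives kept direction and side of the threshold, 310 newly passed it, 105 no longer passed it and 7 changed sign. These leave out most Hevin against Media differences, which were unstable in sign: over all 35 members and 29 alternatives, 90 of 1015 values had the other sign, 19 of them without Media 2. A fit without the block that leaves out 1 library lets level differences between numbers enter the Hevin difference. With 4 libraries a group and no block, the standard errors of the members limit which differences could be called.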
